A study of Mus musculus with 2 samples.

Results

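The aminoacyl-tRNA synthetase genes examined here are 36 nuclear genes, 20 for cytoplasmic enzymes and 16 for mitochondrial enzymes, the latter being those whose names end in 2. Chromatin at their promoters was read from the list of DNase I hypersensitive sites (DHS) of mouse splenic B cells. A DHS was assigned to a gene when it overlapped the region from 1 kb before to 1 kb after any annotated transcription start site (TSS) of that gene in GENCODE M1, on the genome build mm9. In this way 38 of the 47542 DHS of the list were assigned to the 36 genes, which are themselves part of 22350 protein-coding genes on chromosomes 1 to 19 and X.

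Of the 2 samples of the series, 1 is a DNaseI library and the other an input library. Both came from B cells of the spleen of C57/Bl6 mice with intact p53 (Trp53+/+), mock treated and 8 weeks old, selected with B220 MicroBeads. No file of the input library was analysed here, there are 0 replicates, and the sequencing depth is unknown. All comparisons below are therefore between genes within 1 library, and no p-value is given. Each DHS carries a score from the authors' peak caller, which has no unit and whose scale is not stated, so scores are compared only within this list, and differences between scores are in units of unknown scale.

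Aminoacyl-tRNA synthetases join each amino acid to its transfer RNA and so supply the ribosome with its substrates. Cytoplasm and mitochondria run separate translation systems, and most amino acids have a separate nuclear gene for the enzyme of each compartment, with Gars and Kars as genes that serve both. Part of the cytoplasmic enzymes are bound together with scaffold proteins in the multi-synthetase complex. When amino acids run short, the kinase Gcn2 (Eif2ak4) and the transcription factor Atf4 raise the transcription of many cytoplasmic synthetase genes through C/EBP-ATF response elements (CARE).

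The cell type label was checked against marker genes. A DHS lay within 1 kb of a TSS in 7 of 7 B cell markers (Cd79a, Cd79b, Ms4a1, Pax5, Cd22, Ebf1 and Blk), with scores from 83.97 to 265.3. It did so in 2 of 8 T cell markers, Cd5 (97.67) and Lat (24.5), in 2 of 6 myeloid markers, Itgam (18.16) and Cd14 (51.05), and in 1 of 3 erythroid markers, Klf1 (177.8). No DHS was called at Cd3d, Cd3e, Cd3g, Cd4, Cd8a, Cd28, Lyz2, Csf1r, Mpo, Ly6g, Gata1 or Hbb-b1, genes that mark these other lineages. The part of other cell types in the DHS of synthetase genes was not tested.

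Every synthetase gene had a DHS at its promoter, 20 of 20 cytoplasmic and 16 of 16 mitochondrial. The share of 100% (exact binomial 95% interval 90.26 to 100, for the number of genes only) compares with 53.7% of all protein-coding genes. This interval treats the genes as independent draws. They are a fixed family read in 1 library, and Hars and Hars2 share 1 DHS, so it does not measure replication. Promoters rich in CpG dinucleotides carry a DHS more often than others, so the genes were also divided by sequence. CpG-rich here means that, over 1000 bp centred on the representative TSS (that of the lowest-numbered protein-coding transcript), GC content reached 55% and the ratio of observed to expected CpG reached 0.6. Of the 36 synthetase promoters 20 were CpG-rich (55.56%, against 39.32% of protein-coding genes), and all 20 had a DHS, against a background of 84.3%. The other 16 also had a DHS each, where the background was 33.8%. The representative TSS itself lay inside a DHS in 34 of 36 genes (94.44%), and the exceptions were Yars and Cars. The share was 40.9% of protein-coding genes and 76.3% of those with a DHS. It was also high in 90.24% of proteasome genes, 86.11% of genes of the cytoplasmic ribosome and 85.53% of genes of the mitochondrial ribosome.

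Most synthetase promoters scored above the median of genes. For each gene the highest score among its DHS was taken. The median of this top score was 119.6 over the 36 genes, with quartiles at 108.1 and 156, against 101.7 over the 11991 protein-coding genes with a DHS, with quartiles at 60.37 and 151.7. The top score was above the median of these genes in 29 of 36 synthetase genes (background 50%), and above their upper quartile in 10 of 36 (background 25%). CpG-rich protein-coding genes with a DHS scored higher, with a median of 113.4 and quartiles at 75.01 and 162.7. Fewer synthetase genes exceeded the median and upper quartile of that class. When the protein-coding genes with a DHS were divided into deciles by score, deciles 1, 2 and 5 held 0 synthetase genes, whereas deciles 6 and 7 held 8 and 10 and the highest decile held 4. Synthetase genes ranged from 62.3 to 336.4, while protein-coding genes with a DHS went down to 5.12.

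Among the cytoplasmic enzymes, the methionine, aspartate and valine genes stood highest. Mars, whose product charges both initiator and elongator methionine tRNA, had a score of 336.4, at the 97.46th percentile of protein-coding genes with a DHS. Dars, for aspartate, had 263.6, and Vars, for valine, had 240.3. Sars, for serine, followed with 180.2, Eprs, a fused enzyme for glutamate and proline, with 157.1, and Gars, for glycine, with 155.9. These 6 genes were the cytoplasmic ones above the upper quartile of genes.

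A dense middle group of 10 cytoplasmic genes had scores between 109.3 and 128.3. In falling order these were Lars (128.3) for leucine, Nars (125.3) for asparagine, Rars (124.2) for arginine, Tars (120.1) for threonine, Farsb (119.1) for the beta subunit of the phenylalanine enzyme, Aars (118.9) for alanine, Wars (117.1) for tryptophan, Qars (114.2) for glutamine, Iars (112.5) for isoleucine and Kars (109.3) for lysine. Neighbours in this order differed by a few units, and with 1 library the error of a score is unknown, so the order within the group cannot be relied on. The other 4 cytoplasmic genes stood apart below it, Hars at 72.45 for histidine, Yars at 68.84 for tyrosine, Cars at 63.76 for cysteine and Farsa at 62.3 for the alpha subunit of the phenylalanine enzyme. The subunits of the phenylalanine enzyme, which is assembled from both Farsa and Farsb products, thus had promoter scores of 62.3 and 119.1.

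Among the mitochondrial enzymes, Yars2 for tyrosine was highest with 239.6. Mars2 had 193.6, Nars2 191.6 and Iars2 156.4, and these 4 lay above the upper quartile of genes. Ears2 for glutamate (140.5), Fars2 (133), Aars2 (130.8), Vars2 (125.7), Pars2 for proline (118), Cars2 (116.6), Tars2 (109.2), Sars2 (105) and Wars2 (103.4) followed, all above the gene median. Lars2 with 82.35, Hars2 with 72.45 and Rars2 with 69.45 were below it.

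**Figure D1:**
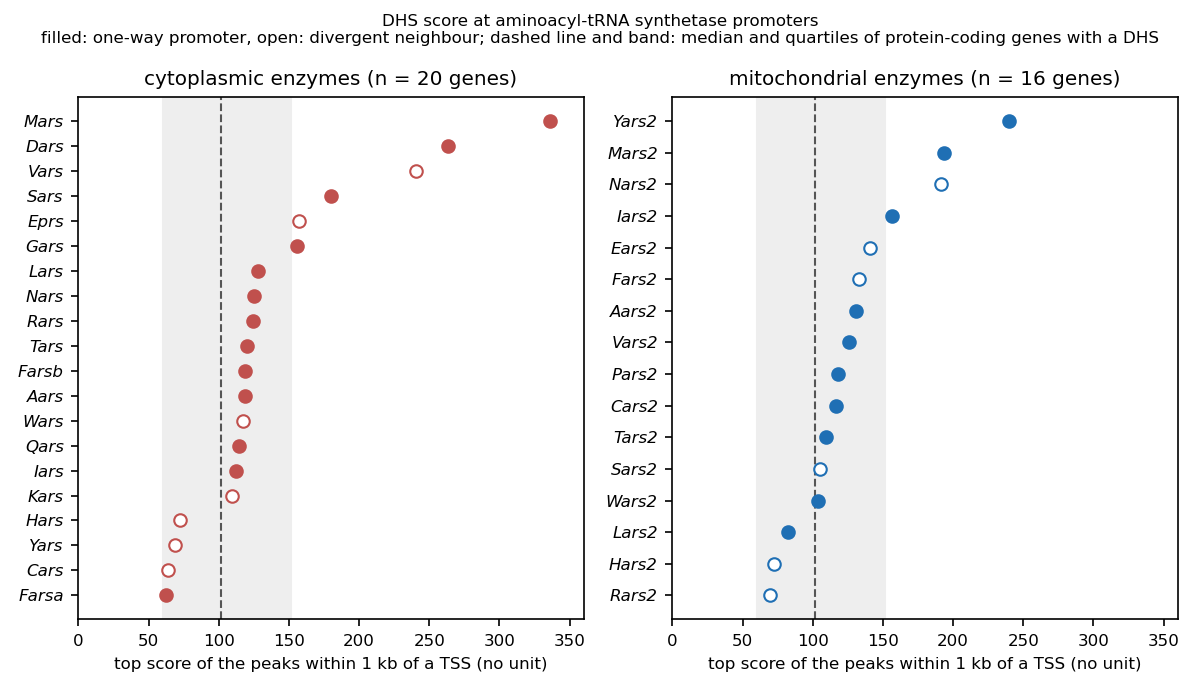
Top DHS score (no unit) of each synthetase gene, cytoplasmic enzymes at left (20 genes) and mitochondrial enzymes at right (16 genes), open circles marking genes with a divergent neighbour, and the dashed line and grey band the median (101.7) and quartiles of protein-coding genes with a DHS. In both panels most genes sit right of the dashed line, 4 cytoplasmic and 3 mitochondrial genes lie left of it, and Mars stands alone at 336.4.

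The scores of cytoplasmic and mitochondrial enzymes overlapped over most of their range. The median was 119.6 for the cytoplasmic genes (quartiles 111.7 and 156.2) and 121.8 for the mitochondrial genes (104.6 and 144.5), a difference of -2.26. The sign of so small a difference was not stable, since it was 3.32 among CpG-rich promoters and 2.33 among promoters without a divergent neighbour. Of the cytoplasmic genes 16 of 20, and of the mitochondrial genes 13 of 16, were above the gene median. For comparison, genes of the cytoplasmic ribosome (72 genes, 72 with a DHS) had a median of 136.7 and those of the mitochondrial ribosome (76 genes, 76 with a DHS) one of 92.03. Of the proteasome genes, 39 of 41 had a DHS, with a median of 109.4.

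For 13 amino acids the list holds a cytoplasmic and a mitochondrial gene of the same name, and these were set side by side. The cytoplasmic gene had the higher score in 7 pairs, Mars, Vars, Sars, Rars, Lars, Wars and Tars. The mitochondrial gene was higher in 5 pairs, Aars, Iars, Cars, Nars and Yars, and in the Hars pair both genes share 1 DHS. With the scores of all DHS of a gene summed, the cytoplasmic gene was higher in 6 pairs. Lars2, which has 2 DHS, then had 143 against 128.3 at Lars. The widest gaps were those of tyrosine, with 68.84 at Yars and 239.6 at Yars2, and of methionine, with 336.4 at Mars and 193.6 at Mars2. Valine was next, with 240.3 at Vars and 125.7 at Vars2. Alanine, threonine and tryptophan lay close together, with 118.9 and 130.8, 120.1 and 109.2, and 117.1 and 103.4.

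**Figure D2:**
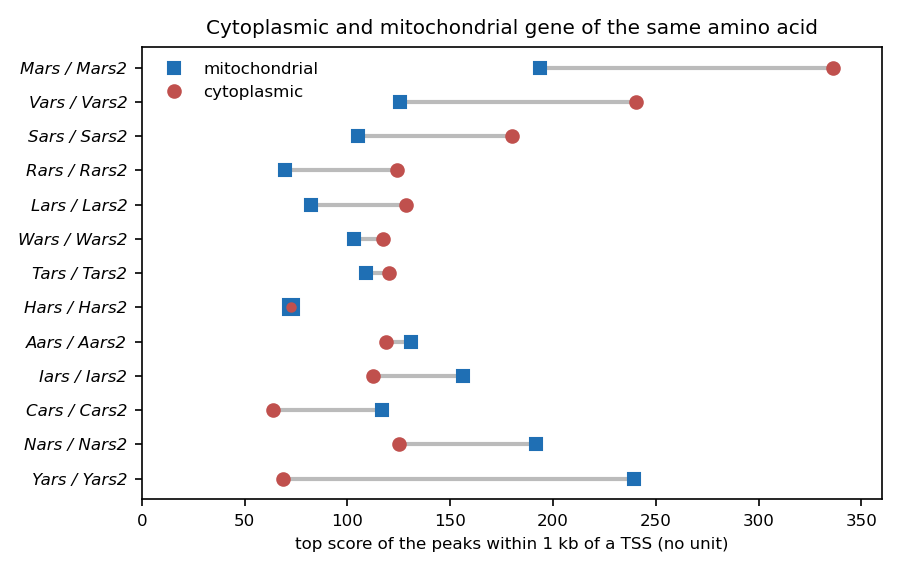
Top DHS score (no unit) of the cytoplasmic gene (red circle) and the mitochondrial gene (blue square) of each of 13 amino acids, joined by a grey line. The circle lies right of the square in the upper 7 pairs and left of it in the lower 5, and both coincide at 72.45 for histidine.

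Division by enzyme family gave small differences as well. Synthetases fall into class I and class II by the fold of their catalytic domain. The 18 class I genes had a median score of 120.7 and the 17 class II genes one of 119.1, with Eprs left out because its protein holds a domain of each class. The 8 genes of the multi-synthetase complex (Dars, Eprs, Iars, Kars, Lars, Mars, Qars and Rars) had a median of 126.2 and none was under 109.3, so that 8 of 8 were above the gene median. The 12 cytoplasmic genes outside the complex had a median of 119, and 8 of 12 were above it. All 4 low cytoplasmic genes, Hars, Yars, Cars and Farsa, lie outside the complex.

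The DHS of synthetase genes were mostly single domains across the TSS. In 33 of 36 genes there was 1 DHS, and only Vars, Yars and Lars2 had a second one. The share with 2 or more was 8.33%, against 37.4% of protein-coding genes with a DHS, 41.21% of CpG-rich ones, 30.56% of genes of the cytoplasmic ribosome, 31.58% of genes of the mitochondrial ribosome and 25.64% of proteasome genes. Genes with many TSSs have a larger search window. With the window set around the representative TSS only, the same count was 3 of 36 for synthetase genes and 29.64% for protein-coding genes. The median width of the top DHS was 1594.5 bp over synthetase genes, 1570 bp over genes of the cytoplasmic ribosome, 1430 bp over CpG-rich genes, 1414 bp over proteasome genes, 1363 bp over protein-coding genes and 1282 bp over genes of the mitochondrial ribosome. Wider DHS also scored higher, at a Spearman rho of 0.55 across the 36 genes and 0.53 across protein-coding genes, where all points share 1 library and 1 peak caller.

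The widest DHS was that of Mars2, 3019 bp on chromosome 1 (55293326 to 55296344), which covered the gene from before its TSS to 2323 bp after it, and of which 76.98% was exonic and 0% intronic. Vars followed with 2722 bp on chromosome 17 (35137418 to 35140139), of which 44.23% was intronic. Its second DHS, with a score of 199.8, lay further upstream, between 1530 and 638 bp before the TSS, and scored above the top DHS of all other synthetase genes except Mars, Dars and Yars2. Mars itself had 2110 bp on chromosome 10 (126748075 to 126750184), reaching 1342 bp before and 767 bp after the TSS. Lars2 had the narrowest one, 561 bp, from 50 bp before to 510 bp after the TSS, with a second DHS of score 60.68 that ended 114 bp before the TSS. The promoter of Yars was built likewise but with the TSS in the gap, since 1 DHS (score 40.26) ended 110 bp before it and the other (68.84) began 115 bp after it. The DHS of Cars, 578 bp wide, began 4 bp after the representative TSS and had 47.58% of its length in exons and 52.42% in introns.

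**Figure D3:**
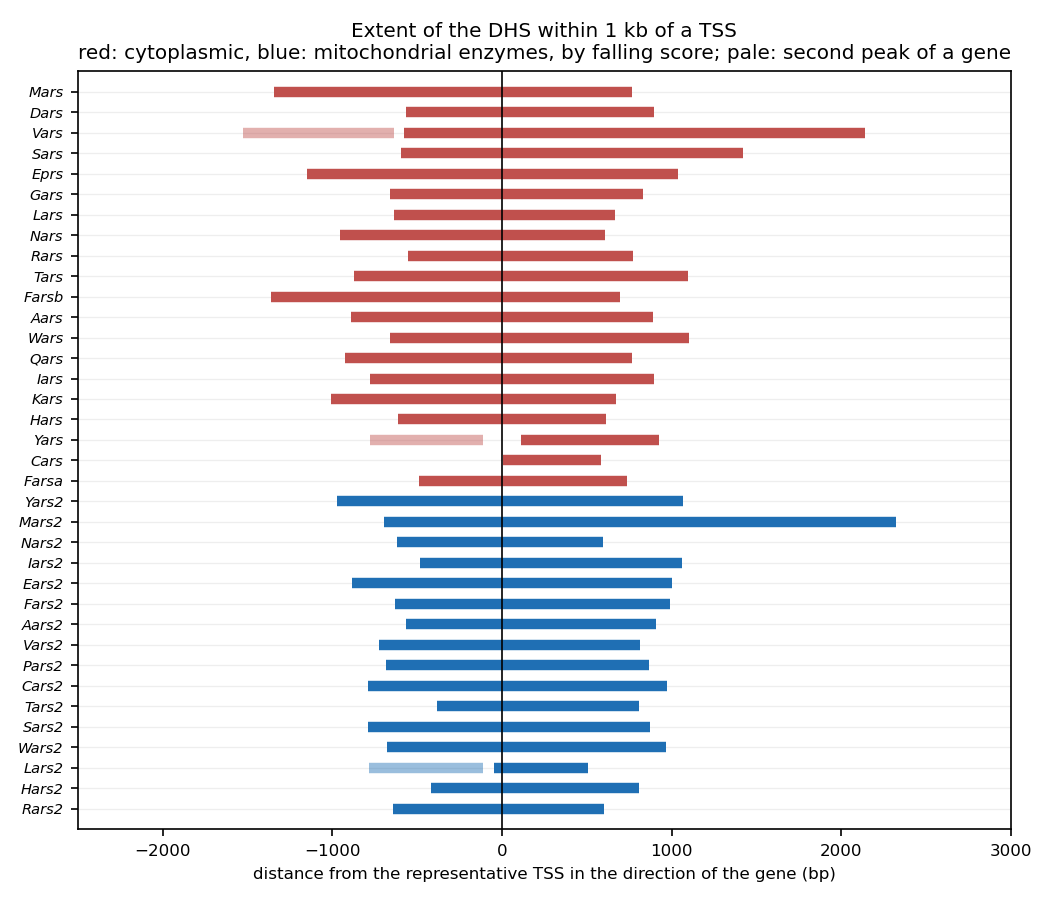
Position of the DHS of each synthetase gene relative to its representative TSS (bp, in the direction of the gene), red for cytoplasmic and blue for mitochondrial enzymes, each ordered by falling score, with pale bars for second DHS. The bars cross the TSS line in 34 genes, Yars and Cars are the exceptions, and the bars of Vars and Mars2 extend furthest downstream.

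The position of the DHS relative to the TSS was examined next, and in most genes it extended further into the gene than away from it. The centre of the top DHS lay after the representative TSS in 27 of 36 genes (background 56.4%), before it in 8 and exactly on it in Hars. It lay after the TSS in 69.44% of genes of the cytoplasmic ribosome, 63.16% of those of the mitochondrial ribosome and 58.97% of proteasome genes with a DHS. The median reach was 660.5 bp before and 870.5 bp after the TSS in synthetase genes, 680.5 and 912 bp in genes of the cytoplasmic ribosome, and 676 and 756 bp in protein-coding genes. For mitochondrial enzymes the centre was after the TSS in 14 of 16 genes, and for cytoplasmic enzymes in 13 of 20. The median reach before the TSS was alike, 660.5 bp for cytoplasmic and 661 bp for mitochondrial enzymes, and after it 803 and 892 bp. The order of coverage depended on the position. At 600 bp upstream a DHS covered 70% of cytoplasmic and 75% of mitochondrial genes, and at 750 bp upstream 55% and 31.25%. At 600 bp downstream the shares were 95% and 87.5%, at 750 bp 65% and 81.25%, and at 1000 bp 25% in both. At 750 bp the shares among CpG-rich protein-coding genes with a DHS were 56.67% upstream and 66.01% downstream, close to those of the cytoplasmic enzymes, and over all CpG-rich genes they were 47.78% and 55.65%. By top DHS, the cytoplasmic genes with the furthest upstream reach were Farsb (1365 bp), Mars (1342 bp), Eprs (1148 bp) and Kars (1009 bp). No top DHS of a mitochondrial enzyme reached as far as these. The second DHS of Vars, which is not its top DHS, reached further, to 1530 bp before the TSS.

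**Figure D4:**
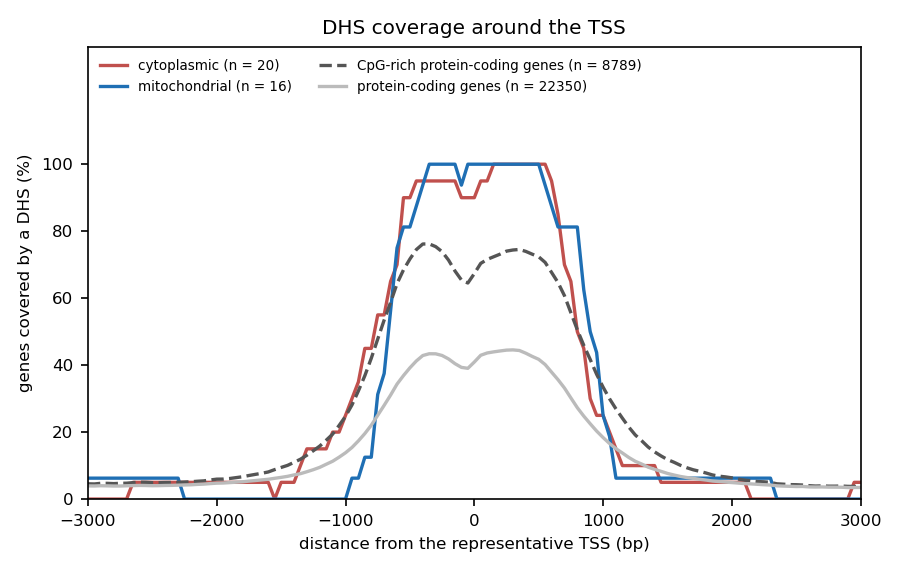
Share of genes (%) in which a DHS covers each position from 3 kb before to 3 kb after the representative TSS, for cytoplasmic enzymes (20 genes), mitochondrial enzymes (16 genes), CpG-rich protein-coding genes and all protein-coding genes. At the TSS the shares are 90%, 100%, 67.33% and 40.92%, where the gene sets include genes without a DHS, and the cytoplasmic and mitochondrial curves cross on both sides of it.

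Many synthetase genes start back to back with another gene. A divergent neighbour, here a TSS of another gene on the opposite strand within 1 kb upstream, was present in 13 of 36 genes (36.11%), against 13.96% of protein-coding genes and 23.7% of CpG-rich ones. Genes of the mitochondrial ribosome had a like share of 36.84%, those of the proteasome 26.83% and those of the cytoplasmic ribosome 20.83%. The distance between the starts was between 13 and 230 bp. The neighbours include Mrps12, a mitochondrial ribosomal protein gene, at Sars2, Lyrm4, of iron-sulfur cluster assembly, at Fars2, Orc3, of the origin recognition complex, at Rars2, and Terf2ip, of telomeres, at Kars. Ubfd1 lies at Ears2, Wdr25 at Wars, S100pbp at Yars and D17H6S56E-5 at Vars, while Eprs and Nars2 each face a long intergenic RNA gene and Cars a processed transcript. Hars and Hars2 face each other with their nearest starts 26 bp apart and share a DHS of 1229 bp, so the accessibility of one cannot be told apart from that of the other.

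Synthetase genes with a divergent neighbour had a median score of 109.3 (13 genes), and those without one 124.2 (23 genes). Among protein-coding genes the order was the opposite, 120.5 with and 95.16 without a neighbour, and among CpG-rich ones 126.3 and 109. Of the 7 synthetase genes below the gene median, Hars, Hars2, Rars2, Yars and Cars had such a neighbour, whereas Lars2 and Farsa had none. Hars and Hars2 are neighbours of each other, and their shared DHS enters this count and the median of 109.3 for both genes. Vars (240.3), Nars2 (191.6) and Eprs (157.1) had such a neighbour and were above the upper quartile. CpG-rich synthetase promoters had a median of 136.7 and the other 16 one of 116.1. Protein-coding genes with a DHS had medians of 113.4 and 80.5 in these classes.

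The promoter sequence was examined for words bound by known regulators, in the 300 bp from 250 bp before to 50 bp after the representative TSS, on both strands and with no mismatch. The CARE word TGATGNAA, bound by dimers of Atf4 with C/EBP proteins, was present in 6 of 20 cytoplasmic genes (30%) and in 0 of 16 mitochondrial genes, against 3.52% of all protein-coding promoters and 1.25% of CpG-rich ones. These 6 were Aars, Cars, Gars, Iars, Nars and Tars. Only Gars among them was CpG-rich, so the share of CpG-rich promoters is no background for the others. All their sites were inside a DHS in these mock-treated cells. With 500 bp on each side of the TSS, 10 cytoplasmic genes had the word, the added ones being Eprs, Farsb, Mars and Yars, and the share of all promoters was 10.6%. When all TSSs of each gene were searched it was 9 cytoplasmic genes and 7.75% of all, and in both searches 0 mitochondrial genes. At such background shares few of 16 promoters would hold the word, so its absence from mitochondrial genes says little. The scores of cytoplasmic genes with the word (median 119.5, 6 genes) and without it (121.6, 14 genes) were close.

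Of the sites, 5 are printed to show how this word of 8 letters sits in different surroundings at each gene, 30 bases each of mm9, read on the strand that carries the word, with the word in capitals.
Aars, chr8:113557740-113557769, minus strand: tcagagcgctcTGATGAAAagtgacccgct
Cars, chr7:150785950-150785979, plus strand: cttccagaatcTGATGCAAccgcggcgccg
Gars, chr6:54987954-54987983, minus strand: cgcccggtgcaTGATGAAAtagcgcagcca
Iars, chr13:49777495-49777524, minus strand: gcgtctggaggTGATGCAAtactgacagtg
Tars, chr15:11329410-11329439, plus strand: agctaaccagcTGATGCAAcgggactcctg
Of these 5 sites, which are not all those found, 3 read TGATGCAA and 2 read TGATGAAA. The word of the printed site began 51 bp before the TSS at Aars, 30 bp before it at Gars and 15 bp before it at Tars, and 27 bp after it at Cars and 37 bp after it at Iars. At Cars this is the part of the window that the DHS covers, which begins 4 bp after the TSS.

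The other words were counted in the same way, and the differences between compartments were not tested. The ETS word CCGGAAG was in 12 of 20 cytoplasmic (60%) and 5 of 16 mitochondrial genes (31.25%), against 10.96% of all and 18.17% of CpG-rich promoters. The E-box CACGTG, bound by Myc and related proteins, was in 4 cytoplasmic genes, Aars, Farsb, Iars and Tars, of which 3 also had the CARE word, and in 0 mitochondrial genes. Over both groups this is 11.11% of synthetase genes, against 7.85% of all and 11.23% of CpG-rich promoters. The NRF1 word GCGCANGCG, of a regulator of nuclear genes for mitochondria, was in 4 cytoplasmic (20%) and 5 mitochondrial genes (31.25%), against 8.15% of all and 16.27% of CpG-rich promoters. The YY1 word AAGATGGCG was in Farsa among the cytoplasmic and in Aars2, Wars2 and Yars2 among the mitochondrial genes, against 1.90% of all and 3.25% of CpG-rich promoters. The GC box GGGCGG was in 55% of cytoplasmic and 75% of mitochondrial genes (44.77% of all, 77.64% of CpG-rich), and CCAAT in 45% and 43.75% (37.67% of all, 35.7% of CpG-rich). TATAAA was in 3 genes, Aars2, Farsa and Tars2 (13.42% of all, 4.56% of CpG-rich). A palindromic word such as the E-box reads the same on both strands and was counted once. Sites of different words did not overlap at the synthetase genes, and the only overlapping pair of sites was that of 2 GC boxes at Yars. These matches describe letters only and were not tested as binding sites.

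**Figure D5:**
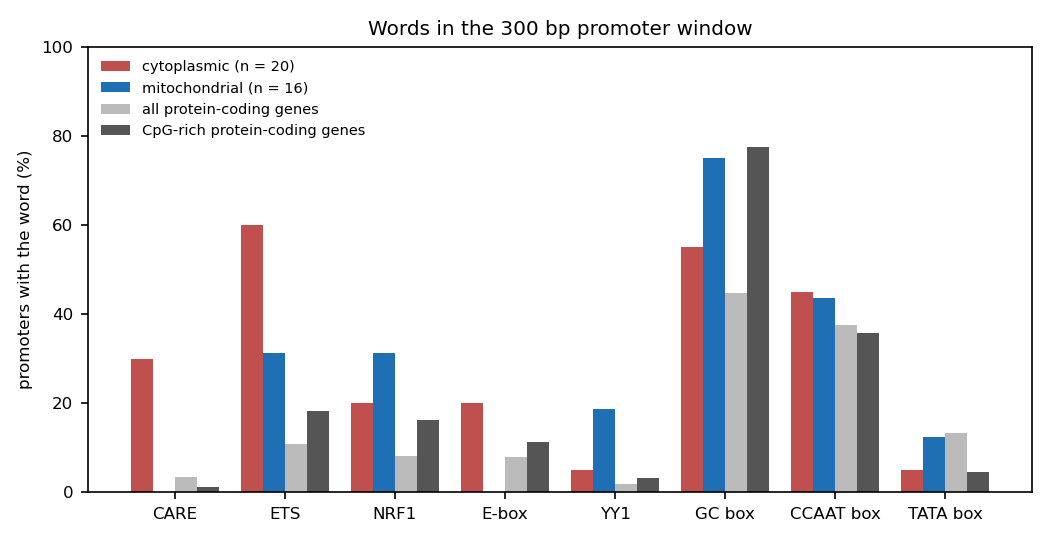
Share of promoters (%) with each word in the 300 bp window, for cytoplasmic enzymes (20 genes), mitochondrial enzymes (16 genes), all protein-coding genes and CpG-rich protein-coding genes. CARE and the E-box have red bars (30% and 20%) and no blue bar, and the ETS bar is highest for cytoplasmic enzymes (60%).

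The 150 bases before the representative TSS are shown for 3 genes with a CARE word (Gars, Tars and Iars), for Mars and Dars, which had the highest scores, and for Farsa, which had the lowest, in the direction of each gene on mm9. Capitals mark CARE, ETS, E-box, NRF1 and YY1 words of either strand, and other boxes are left in lower case.
Gars, chr6:54987845-54987994, plus strand: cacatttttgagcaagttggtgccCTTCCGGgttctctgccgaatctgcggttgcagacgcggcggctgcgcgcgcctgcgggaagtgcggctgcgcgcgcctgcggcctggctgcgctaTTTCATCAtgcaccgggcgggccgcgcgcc
Tars, chr15:11329414-11329563, minus strand: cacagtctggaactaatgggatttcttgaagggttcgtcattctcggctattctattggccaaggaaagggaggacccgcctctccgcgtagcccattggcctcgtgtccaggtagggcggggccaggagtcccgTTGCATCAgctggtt
Iars, chr13:49777319-49777468, plus strand: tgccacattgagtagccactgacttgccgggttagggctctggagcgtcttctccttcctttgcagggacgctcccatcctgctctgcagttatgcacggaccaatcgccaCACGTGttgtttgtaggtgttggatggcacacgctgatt
Mars, chr10:126748843-126748992, minus strand: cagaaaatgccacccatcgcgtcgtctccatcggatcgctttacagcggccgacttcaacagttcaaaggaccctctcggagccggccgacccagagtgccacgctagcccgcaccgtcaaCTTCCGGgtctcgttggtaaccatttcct
Dars, chr1:130313994-130314143, minus strand: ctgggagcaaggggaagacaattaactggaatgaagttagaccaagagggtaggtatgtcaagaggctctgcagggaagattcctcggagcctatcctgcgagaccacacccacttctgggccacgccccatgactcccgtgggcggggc
Farsa, chr8:87380738-87380887, plus strand: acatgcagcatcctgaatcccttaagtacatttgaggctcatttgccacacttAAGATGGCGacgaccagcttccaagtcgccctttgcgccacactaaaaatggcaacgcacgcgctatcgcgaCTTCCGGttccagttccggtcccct
At Gars the ETS word began 126 bp and the CARE word 30 bp before the TSS. At Iars the E-box began 39 bp before the TSS, and its CARE word lies downstream, outside this stretch. At Mars 1 ETS word lay 29 bp before the TSS and at Farsa 1 lay 25 bp before it, so that the genes of the highest and the lowest score carry the same word at a like place. Dars, second in score, had none of the capitalised words in this stretch.

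Accessible sites away from the promoters were present in a minority of synthetase genes. Inside the gene but over 1 kb from its TSSs, 12 of 36 genes (33.33%) had a DHS, against 26.5% of protein-coding genes and 39.4% of those with a promoter DHS. There were 24 such DHS, or 1.5 per 100 kb of gene, against 1.64 in all protein-coding genes and 2.54 in those with a promoter DHS. With peaks at or above the median score only, the count was 6 of 36 genes, against 22.8% of protein-coding genes with a promoter DHS. The density was 1.88 per 100 kb in cytoplasmic and 1.25 in mitochondrial genes, but 0.88 in the cytoplasmic genes without Farsb. Farsb held 7 of the 24, or 9.87 per 100 kb, with scores from 13.31 to 78.95. The strongest of these was intronic, 52.68 kb after the TSS, and the one at the far end also overlaps Sgpp2. Fars2, the longest gene with 420.2 kb, held 3, all intronic. Aars held 2 near its 3' end, with scores of 68.02 and 24.86, and Lars2 also held 2, 1 of which scored 73.43 and lay 95.06 kb after the TSS. Nars2 and Wars2 held 2 each, and Aars2, Cars, Cars2, Gars, Rars2 and Vars 1 each. That of Vars overlaps the start of D17H6S56E-3. Of the 12 genes, 5 were cytoplasmic and 7 mitochondrial, with 12 DHS in each group.

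The study concerns the transcription factor p53, and the element it binds was searched in the synthetase DHS as 2 adjacent decamers with at most 2 mismatches and none at the core C and G. It was found in 0 of the 38 DHS, where 1.09% of promoter DHS of protein-coding genes (174 of 16019) hold it. At that share less than 1 would be found in 38, so the absence says little.

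Genes that act around aminoacylation were read beside the same background, a DHS in 53.7% of protein-coding and 84.3% of CpG-rich genes. All 3 scaffold genes of the multi-synthetase complex had a DHS, Aimp1 with 121.2, Aimp2 with 96.6 and Eef1e1 with 140.9. So did the 4 genes of glutaminyl-tRNA formation and methionyl-tRNA formylation in mitochondria, which were Qrsl1 (188.4), Gatc (149.8), Mtfmt (141.5) and Pet112l (116.5). Of the genes that edit, release or complete tRNA, Dtd1 had 199, Aarsd1 190, Ptrh2 170.5 and the CCA-adding enzyme gene Trnt1 109.5. In the amino acid response 5 of 6 genes had a DHS. Atf4, the factor that binds the CARE word, had 370.5, above every synthetase gene, while Ddit3 had 167.9, Eif2s1 139, Trib3 106 and the kinase gene Eif2ak4 105.8. No DHS was called within 1 kb of a TSS of Asns, the asparagine synthetase gene that is a known target of this response and no tRNA synthetase, which says only that none was called in this list.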

How the data were processed

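DNase I digested chromatin of splenic B cells was sequenced by the authors, who deposited 1 peak list with a score per peak. The score is unitless and its scale, the version and settings of the peak caller for this library are not given in the sources used here. The study's methods describe MACS settings for ChIP-seq, which were not assumed to hold for the DNaseI library. The submitters' processing notes name BWA 0.6.2, SAMtools and mm9. The list holds no counts, so the depth is unknown and precision cannot be set from it. Peak starts were converted to count from 1.

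TSSs, exons and protein-coding genes were taken from GENCODE M1 on chromosomes 1 to 19 and X, and sequences from the mm9 assembly. A peak belonged to a gene when at least 1 bp overlapped the region within 1 kb of any TSS. Shares, medians, quartiles and Spearman correlations were computed with Python 3.11.15, numpy 2.4.6 and scipy 1.17.1, and the assignment was tested on simulated data. Intervals are exact (Clopper-Pearson, 95%). Members and gene lists were chosen with earlier results of these data known. All 36 members are named. Sequences are shown for genes with a CARE word and for the extremes of score, except Nars, and the upstream stretches of Aars and Cars were left out because they hold annotated exons. Of the marker lists, 1 B cell and 1 erythroid gene, and of the sequences part, are not reported here, for reasons unrelated to their values. Alternatives concerned the score threshold, window, TSS set, merging of peaks under 500 bp apart, and promoter class.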

Additional observations from a re-analysis of the deposited data

How the results depend on the processing

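Of 72 values under alternatives, 66 kept their direction and stayed within a margin. The margin was 1.5 times for counts and the 95% interval over genes of the main value for shares and medians. Part of these values could not change, so the 66 are no measure of stability. No synthetase gene lacked a DHS, and a wider window cannot lower a share of 100%. The lowest top score (62.3) was above the median score of the list (32.65), so that threshold could not alter top scores. The difference of median score between cytoplasmic and mitochondrial genes (-2.26) turned to 3.32 among CpG-rich promoters and to 2.33 among genes with no divergent neighbour, and was -8.62 for summed scores and -6.07 with the wider window, within the margin of both medians. Likewise the difference of median width (133.5 bp) turned to -57.5 bp among CpG-rich promoters. The cause was not tested. The genes with a CARE word rose from 6 to 10 with 500 bp on each side, a wider window, and those with a DHS elsewhere in the gene fell from 12 to 6 when peaks below the median score were dropped. The difference in DHS per 100 kb of gene, 0.63 higher in cytoplasmic genes, turned to -0.37 without Farsb, which holds 7 of their 12 DHS. The CARE count over all TSSs was 9. The count with 2 or more peaks around the representative TSS stayed at 3. That alternative and the one without Farsb were chosen after seeing the data. No paired analysis was possible because there is 1 library with data. With 1 library of unknown depth, neither the error of a score nor a missed peak can be judged.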
